A study of Mus musculus with 4 samples.

Results

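Nuclear receptors are transcription factors, most of them switched by small fat-soluble ligands such as retinoic acid, fatty acids, oxysterols or steroid hormones. The genes described here are the nuclear receptor superfamily in mouse large peritoneal macrophages (LPMs), given as a list of 44 gene symbols by membership of the family. The table holds 41 of them among its 18364 genes, and *Nr1i2*, *Nr0b1* and *Nr3c2* were not among the genes used here. They fall into the 3 retinoid X receptor (RXR) genes, 15 genes for RXR partners (of 16 listed) and 23 genes for receptors that do not need RXR (of 25 listed).

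Bulk RNA was sequenced from sorted LPMs, the main resident macrophages of the mouse peritoneal cavity, taken from C57BL/6 animals at 8 weeks of age. The groups are 2 libraries labelled wild type (WT) and 2 labelled Rxra-/- (Rxra-KO). Per the methods of the study, *Rxra* was deleted with a Cre recombinase driven from the *LysM* (*Lyz2*) locus, which is active in myeloid cells, and the controls were littermates carrying the floxed *Rxra* alleles without Cre. The Cre is not limited to LPMs, and the floxed gene is also deleted in other myeloid cells of these mice. The labels do not say whether the libraries came from separate animals, so p-values refer to these libraries and not to a spread between animals. In the limma test used below, the spread came mostly from a trend over all genes and little from a gene's own replicates (226.6 prior and 2 residual degrees of freedom).

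RXR binds DNA either as a pair with itself or as the obligate partner of other receptors, among them the retinoic acid receptors (RAR), the peroxisome proliferator-activated receptors (PPAR), the liver X receptors (LXR), the vitamin D receptor and the thyroid hormone receptors. Steroid receptors, REV-ERBs, RORs and many orphan receptors act without it. In macrophages, RXR with PPAR and LXR is known for the control of lipid handling, and in LPMs retinoic acid is known to maintain the factor GATA6.

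Each library held between 629030 and 1047021 reads, recovered from the deposited normalised values, and the receptors as a whole took 498 to 819 of them. Only 1 receptor gene had a mean of at least 100 reads per library, 13 had between 10 and 100, and 27 had fewer than 10. The floor of detection was set at 3 reads per library, met where neither library of a group exceeded it, and 12 of the 41 genes were at the floor in at least 1 group. Of the 8 macrophage and LPM markers, all detected, 5 were called lower in Rxra-KO (*Adgre1*, listed as *Emr1*, *Itgam*, *Icam2*, *Gata6* and *Lyz2*). The others were not called, with log2 fold changes of 0.36 for *Csf1r*, 0.22 for *Cd68* and -0.80 for *Timd4*. The 8 values summed to 21516 and 19557 in WT against 10606 and 11171 in Rxra-KO. Most of each sum was *Lyz2*, the locus that drives the Cre, at 14263 and 11591 against 6386 and 6230. The effect of the Cre allele on *Lyz2* was not tested. Summed markers of B cells ranged from 10.6 to 17.4 in WT and from 14.9 to 22.6 in Rxra-KO, and those of T cells from 41.2 to 43.9 and from 34.8 to 60.2, and their genes went different ways. *Cd2* was called higher, with no read in WT and 11 and 6 in Rxra-KO, *Lck* had 7 and 11 against 2 and 0 (adjusted p = 0.132 from limma), and *Cd3d* 20 and 21 against 21 and 25. Dendritic cell markers summed to 43.9 and 44.7 in WT and to 94.1 and 112 in Rxra-KO, where *Cd209a* was the only 1 of 5 that passed the test, and the other 4 summed to 22.7 and 29.3 in WT and 28.6 and 31.8 in Rxra-KO. No marker of mast, mesothelial, fibroblast, neutrophil or erythroid cells was called. Only 1 of 4 neutrophil and 2 of 4 erythroid markers were among the genes used. Most of the markers of these cell types had few reads, so the lack of a call shows little. In such bulk libraries fewer cells of a type and less RNA per cell cannot be told apart.

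The sequences just upstream of the transcription start are shown for 3 genes. They are genes that the results below turn on or that held the only direct repeat of half-sites found. Each is 250 bases long, reads 5′ to 3′ along the gene's strand and comes from the RefSeq promoter windows of mouse build GRCm38.p6. For each gene the first window that held the marked motif in these bases was taken. *Rxra* is shown as the targeted gene (chr2:27709042-27709291, plus strand), with both copies of the receptor half-site AGGTCA in capitals, the first of them read on the opposite strand. *Pparg* is shown as the single receptor gene that passed the test (chr6:115360894-115361143, plus strand), at 1 of its starts, with the half-site in capitals. *Rarb* is shown for its pair of half-sites 5 bases apart (chr14:16575477-16575726, minus strand), a direct repeat of the kind known as DR5, in capitals.
Rxra: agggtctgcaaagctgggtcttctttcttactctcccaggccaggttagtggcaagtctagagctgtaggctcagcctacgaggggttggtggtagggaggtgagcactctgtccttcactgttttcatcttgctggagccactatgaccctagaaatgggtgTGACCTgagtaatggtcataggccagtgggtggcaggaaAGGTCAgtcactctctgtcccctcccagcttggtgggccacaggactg
Pparg: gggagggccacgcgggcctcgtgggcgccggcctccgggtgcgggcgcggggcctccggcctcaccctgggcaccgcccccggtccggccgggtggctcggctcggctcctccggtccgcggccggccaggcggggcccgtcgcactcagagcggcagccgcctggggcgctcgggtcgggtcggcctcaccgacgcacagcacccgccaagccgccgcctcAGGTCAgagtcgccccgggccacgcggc
Rarb: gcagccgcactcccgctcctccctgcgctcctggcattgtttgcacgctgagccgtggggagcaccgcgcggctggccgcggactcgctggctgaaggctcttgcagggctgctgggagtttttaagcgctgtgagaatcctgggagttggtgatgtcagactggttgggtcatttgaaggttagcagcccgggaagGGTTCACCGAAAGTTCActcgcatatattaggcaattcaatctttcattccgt

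AGGTCA is the core hexamer that most receptors of the RXR family recognise. On either strand it lay in 12 of the 62 member windows, or 19.4%, against 16.3% of all 32851 windows, which run from 250 bases before to 50 bases after a start. The windows belonged to 11 genes, which included *Rxra*, *Rxrg*, *Rara*, *Rarg*, *Pparg*, *Nr1h4*, *Thrb* and *Nr1d2*. No window was available for *Nr3c1*, *Thra* or *Nr5a1*. In *Pparg* the half-site lay at positions -28 to -23 from the start in the window shown and at -9 to -4 in a window of another start, and in *Rxra* the first lay at -87 to -82. Of the direct repeats DR1 to DR5, searched with the usual variants of the half-site, DR5 was in the *Rarb* window alone, at positions -53 to -37, and in 0.0974% of all windows. The others were in none of the member windows and in 0.0396% to 0.268% of all. The E-box CACGTG lay in 9.68% of member windows against 7.15% of all, and TGACGTCA in 1.61% against 1.79%. These are matches of letters and were not tested as binding sites.

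The receptor with the highest level in WT LPMs was the glucocorticoid receptor gene *Nr3c1*, which encodes the receptor for corticosterone. It reached 159 and 196 reads in WT and took 31.9% (95% Wilson interval 28.0 to 36.1) and 29.1% (25.8 to 32.7) of all receptor reads. Per kilobase of its longest transcript, *Nr3c1* had a mean normalised value of 35.2, and the next gene, *Nr2c2*, had 12.1. *Nr2c2* encodes TR4, an orphan receptor. The WT ranges of this pair did not overlap, at 33.0 to 37.4 for *Nr3c1* and 8.91 to 15.3 for *Nr2c2*.

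Below them the levels per kilobase of transcript lay close together. *Esr2* (estrogen receptor beta) had 8.79, *Rarb* (retinoic acid receptor beta) 8.40, *Rxrb* 7.05, *Rxra* 6.18, *Thra* (thyroid hormone receptor alpha) 5.96 and *Rora*, a receptor of the clock, 5.73. *Nr2c2* and *Esr2* overlapped in their WT ranges, as did *Esr2* and *Rarb*, while *Rarb* and *Rxrb* did not, nor did *Rxrb* and *Rxra*, each with n = 2. Per kilobase of coding sequence *Nr3c1* and *Nr2c2* kept the first and second place, at 95.3 and 49.1, *Rora* followed at 39.8 and *Rxra* at 21.6, so the order of the lower genes depended on the length used.

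**Figure D1:**
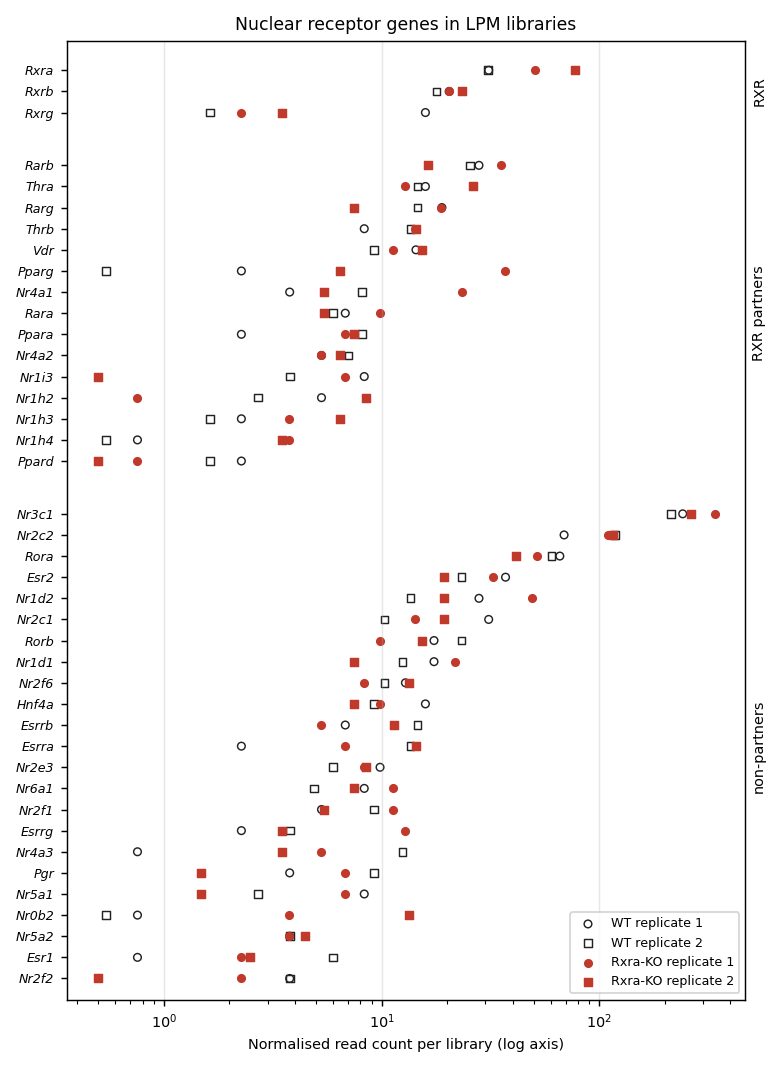
Normalised read count (log axis) of the 41 nuclear receptor genes, 1 point per library, grouped as RXR, RXR partners and non-partners and sorted by mean. *Nr3c1* lies highest, *Rxra* is at 31.0 and 30.9 in WT and at 50.4 and 77.0 in Rxra-KO, and *Pparg* is at 2.27 and 0.542 against 36.9 and 6.46. The points at the far left are 0 or 1 read, since the deposited values add 0.5 read.

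Some of these genes share exon bases with a gene on the opposite strand in the GENCODE M21 annotation, and the kit does not mark strand. *Nr2c2* shares 4590 bases with *Mrps25*, which had 81 and 103 reads in WT, and *Rarb* shares 1793 bases with *Top2b*, which had 92 and 85. Reads of *Nr2c2* and *Rarb* therefore cannot be told apart from reads of these neighbours within the shared bases. *Thra* and *Nr1d1* share 263 bases with each other, and genes with fewer reads and such an overlap are *Nr1i3*, *Nr2f1*, *Nr2f2*, *Nr2f6* and *Esrra*.

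The comparison of the libraries labelled Rxra-KO with WT asked which receptor genes differ when *Rxra* is deleted. The test was limma on log2(value + 1) over all 18364 genes, with a call at a Benjamini-Hochberg adjusted p under 0.05 and a log2 fold change of at least 0.6 either way. Of the 41 receptor genes, 1 was called, *Pparg*, against 2.29% of all genes, and it was higher, against 1.32% called higher and 0.969% called lower over all genes. An unadjusted p under 0.05 was reached by 3 genes (*Pparg*, *Nr0b2* and *Rxra*), against 10.1% of all genes. The median log2 fold change was 0.11 over the receptors and 0.02 over all genes, with 22 above 0 and 19 below. A member listed through the libraries of a single group had to differ, so these counts are a description. This held for *Nr1h4* and *Nr0b2* with no WT read and for *Ppard* with no Rxra-KO read. *Pparg*, with 1 and 0 reads in WT, reached a value of 1 in only 1 WT library. Its listing therefore also rested on Rxra-KO. With *Nr0b2* at its lower bound and the 3 genes at the floor in both groups left out, the median over 38 genes was 0.11.

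In 11 of the 41 genes (26.8%) the groups did not overlap, against 38.1% of all genes. *Rxra*, *Pparg*, *Nr1h3*, *Nr1h4*, *Thrb*, *Nr3c1* and *Nr0b2* were higher in both Rxra-KO libraries, and *Ppard*, *Rora*, *Rorb* and *Nr2f2* were lower in both. *Nr1h4*, *Ppard* and *Nr2f2* were at the floor in both groups.

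**Figure D2:**
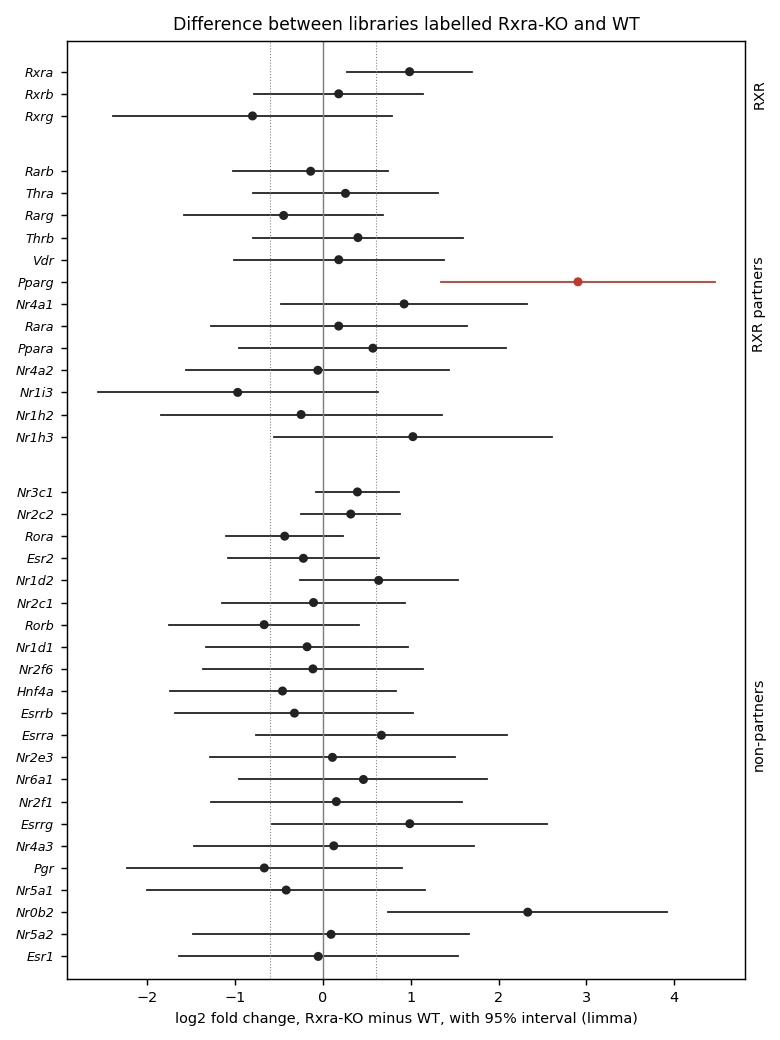
The log2 fold change (Rxra-KO minus WT, on the log2(value + 1) scale) of the 38 receptor genes above the floor in at least 1 group, with the 95% limma interval as a bar, a grey line at 0 and dotted lines at 0.6 either way. *Pparg*, in red, is the single gene called, and the intervals of *Rxra* and *Nr0b2* also lie above 0. *Nr0b2* had no WT read and was listed through Rxra-KO alone, so its direction was fixed. The listing of *Pparg* also needed Rxra-KO.

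RXR genes encode the shared partner itself. *Rxra* (RXR alpha, the targeted gene) had 20 and 28 reads in WT, against 33 and 77 in the libraries labelled Rxra-KO. Both Rxra-KO libraries were above both WT libraries, and whole-gene values cannot say whether this bears on the label. The log2 fold change was 0.99 (SE 0.36, 95% interval 0.27 to 1.70), with an adjusted p = 0.183 from limma, and the summed reads normalised for depth differed 2.17-fold (95% exact counting interval 1.53 to 3.11). The values sum reads over the whole gene, so reads outside the deleted part remain in them and do not check the deletion.

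*Rxrb* (RXR beta) had 13 and 16 reads in WT, against 13 and 23 in Rxra-KO, and the groups overlapped. Its log2 fold change was 0.18 (95% interval -0.78 to 1.14), a range that spans a loss and a gain of more than 1.5-fold. *Rxrg* (RXR gamma) had 10 and 1 reads in WT, against 1 and 3 in Rxra-KO, where it was at the floor. The ratio of its summed reads was 0.344, with a counting interval from 0.080 to 1.16.

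Within the 3 RXR genes, *Rxra* took 46.5% and 62.2% of the reads in WT, against 70.2% and 74.8% in Rxra-KO, or 54.4% ± 11.1 and 72.5% ± 3.21 (SD, n = 2 each). An exact permutation test gave p = 0.333 (two-sided), the smallest that 2 against 2 libraries allow. WT replicate 1, with the lowest share, was also the library with 10 *Rxrg* reads, against 1 to 3 in the others. The paper reports transcripts of *Rxra* and *Rxrb* alone in LPMs. RXR genes together took 36.4% and 30.8% of the reads of RXR and its partners in WT, against 28.3% and 45.4% in Rxra-KO. The Rxra-KO libraries lay on either side of WT (33.6% ± 3.97 against 36.8% ± 12.1, SD, n = 2 each, exact permutation p = 1). These shares count reads of genes of different length, and only the same share is compared between libraries.

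**Figure D3:**
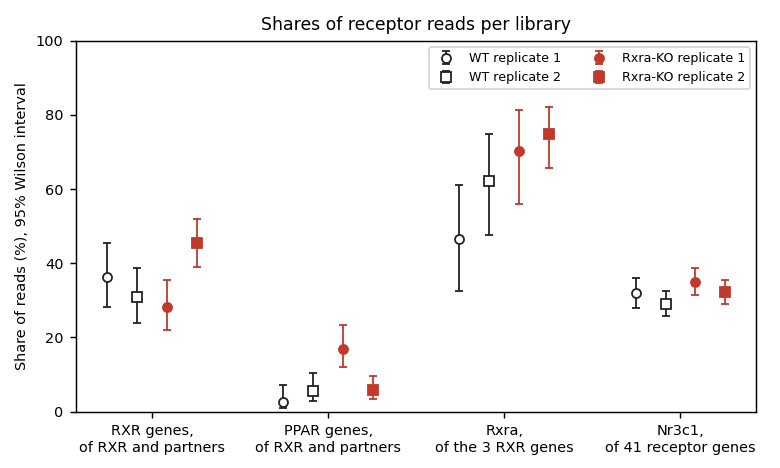
Share of reads (%, y axis) in each library for the RXR genes and the PPAR genes among RXR and its partners, for *Rxra* among the 3 RXR genes and for *Nr3c1* among the 41 receptor genes. Points are libraries and bars 95% Wilson intervals, which cover counting error only. The *Rxra* share is 46.5% and 62.2% in WT and 70.2% and 74.8% in Rxra-KO. Its intervals in WT replicate 1, which held 10 *Rxrg* reads, and in Rxra-KO replicate 2 do not overlap. Those of the other pairs of WT and Rxra-KO libraries do.

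Of the RXR partners, 1 of 15 was called, beside 2.29% of all genes, 9 had a log2 fold change above 0 and 6 below, and the median was 0.18. RAR genes encode the receptors for all-trans retinoic acid. *Rara* (RAR alpha) had 4 and 5 reads in WT, against 6 and 5 in Rxra-KO. *Rarb* had 18 and 23 reads in WT, against 23 and 16 in Rxra-KO, and *Rarg* (RAR gamma) had 12 and 13 against 12 and 7. The groups overlapped in all 3 genes. The log2 fold change was -0.14 (95% interval -1.02 to 0.74) for *Rarb*, whose DR5 is printed above, and -0.45 (-1.58 to 0.69) for *Rarg*.

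PPAR genes encode fatty acid sensors. *Pparg*, the receptor best known for fat storage and for alveolar macrophages, had 1 and 0 reads in WT, against 24 and 6 in Rxra-KO. WT was at the floor, and the replicates of Rxra-KO differed widely, at values of 36.9 and 6.46. The log2 fold change was 2.90 (SE 0.79, 95% interval 1.35 to 4.46), with an adjusted p = 0.0164 from limma. The summed reads differed 28.4-fold, with a counting interval from 4.72 to 1160 that rests on 1 read in WT. As the gene passed the filter only with the help of Rxra-KO, the test and the ratio are a description. Among the markers of other cell types *Cd209a* and *Cd2* were also called higher, and their part in the *Pparg* value was not tested. The call was lost without Rxra-KO replicate 1 (log2 fold change 1.73, adjusted p = 0.873) and without WT replicate 2 (2.36, adjusted p = 0.13), and with limma-voom on the reads (3.62, adjusted p = 0.0659).

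*Ppara* (PPAR alpha, which drives fatty acid oxidation) had 1 and 7 reads in WT, against 4 and 7 in Rxra-KO. *Ppard* (PPAR delta) had 1 and 1 in WT and 0 in both Rxra-KO libraries, at the floor in both groups. The PPAR genes together took 2.54% and 5.48% of the reads of RXR and its partners in WT and 16.9% and 5.73% in Rxra-KO (exact permutation p = 0.333), and the high library was the one that carried most *Pparg* reads.

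The LXR genes *Nr1h3* (LXR alpha) and *Nr1h2* (LXR beta) encode oxysterol sensors. *Nr1h3* had 1 and 1 reads in WT, against 2 and 6 in Rxra-KO, and the ratio of summed reads was 3.79 (95% exact counting interval 0.756 to 36.6). *Nr1h2* had 3 and 2 reads in WT, against 0 and 8 in Rxra-KO, on either side of WT. *Nr1h4*, for the bile acid receptor FXR, had no read in WT and 2 and 3 in Rxra-KO, at the floor in both groups. The depth does not allow a difference in these genes to be measured.

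The vitamin D receptor gene *Vdr* had 9 and 8 reads in WT, against 7 and 15 in Rxra-KO, and *Nr1i3*, for the xenobiotic receptor CAR, had 5 and 3 against 4 and 0. For the thyroid hormone receptors, *Thra* had 10 and 13 reads in WT, against 8 and 26 in Rxra-KO, with overlapping groups and a log2 fold change of 0.26 (95% interval -0.80 to 1.31). *Thrb* (thyroid hormone receptor beta) had 5 and 12 reads in WT, against 9 and 14 in Rxra-KO, at values of 8.33 and 13.6 against 14.3 and 14.4. The Rxra-KO values were just above the higher WT value, and the log2 fold change was 0.40 (-0.80 to 1.59).

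The NR4A genes encode orphan receptors that are induced rapidly by stimulation, and *Nr4a1* (NUR77) and *Nr4a2* (NURR1) can pair with RXR. *Nr4a1* had 2 and 7 reads in WT, against 15 and 5 in Rxra-KO, with a log2 fold change of 0.92 (adjusted p = 0.765 from limma). *Nr4a2* had 3 and 6 reads in both groups. *Nr4a3* (NOR1), which does not pair with RXR, had 0 and 11 against 3 and 3. The library with most *Nr4a1* reads, Rxra-KO replicate 1, also had the highest summed value of 14 immediate early genes, 548 against 353 in the other Rxra-KO library and 427 and 442 in WT. That order rested on *Egr2*, since the other 13 genes summed to 299 and 294 in Rxra-KO replicates 1 and 2 and to 403.5 and 416 in WT.

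None of the 23 non-partners was called, beside the same 2.29% of all genes, 11 had a log2 fold change above 0 and 12 below, and the median was -0.05. The median was 0.02 over the 22 genes that were not at the floor in both groups, with *Nr0b2* at its bound, so its sign depended on the genes with fewest reads. *Nr3c1* had 224 and 264 reads in Rxra-KO beside the 159 and 196 in WT. At normalised values of 338 and 263 against 241 and 213 the groups did not overlap. The log2 fold change was 0.39 (SE 0.24, 95% interval -0.08 to 0.86, adjusted p = 0.632 from limma), which leaves out a 2-fold change either way. Its share of the receptor reads was 35.0% and 32.2% in Rxra-KO, above both WT libraries (exact permutation p = 0.333).

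*Nr2c2* had 45 and 108 reads in WT, against 72 and 116 in Rxra-KO, and the WT libraries stood further apart than the groups. Its log2 fold change was 0.32 (95% interval -0.25 to 0.88), and with *Nr3c1* it was 1 of 2 receptor genes whose interval lay within a 2-fold change. Its relative *Nr2c1* (TR2) had 20 and 9 reads in WT, against 9 and 19 in Rxra-KO, with a log2 fold change of -0.11 (-1.15 to 0.93).

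**Figure D4:**
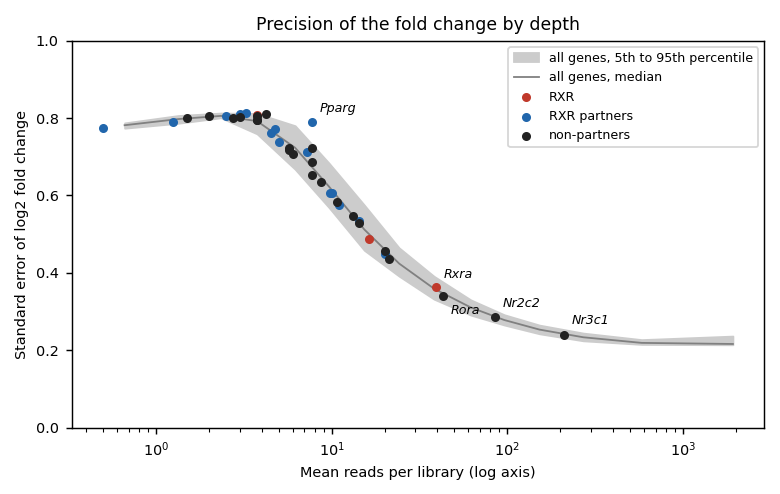
Standard error of the log2 fold change (y axis) against the mean reads per library (log axis) for the 41 receptor genes as points. The grey band is the 5th to 95th percentile of all 18364 genes in bins of reads and the line their median. The error is 0.24 for *Nr3c1*, 0.36 for *Rxra* and 0.79 for *Pparg*, which lies above the band, and reaches 0.81 among genes with few reads.

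REV-ERBs and RORs bind the same response element and respectively repress and activate clock genes. *Nr1d1* (REV-ERB alpha) had 11 and 11 reads in WT, against 14 and 7 in Rxra-KO, and *Nr1d2* (REV-ERB beta) had 18 and 12 against 32 and 19. The groups overlapped in both genes, with log2 fold changes of -0.18 (95% interval -1.33 to 0.97) and 0.63 (-0.27 to 1.54). *Rora* (ROR alpha) had 43 and 55 reads in WT, against 34 and 41 in Rxra-KO, and *Rorb* (ROR beta) had 11 and 21 against 6 and 15. In normalised values both RORs were lower in both Rxra-KO libraries, at 51.9 and 41.2 against 65.9 and 60.2 for *Rora* and 9.79 and 15.4 against 17.4 and 23.3 for *Rorb*. The log2 fold changes were -0.44 (-1.10 to 0.23, adjusted p = 0.768) and -0.67 (-1.75 to 0.41, adjusted p = 0.789) from limma.

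The estrogen receptor gene *Esr2* had 24 and 21 reads in WT, against 21 and 19 in Rxra-KO, with a log2 fold change of -0.22 (95% interval -1.08 to 0.63). *Esr1* (estrogen receptor alpha) had 0 and 5 against 1 and 2, and *Pgr* (progesterone receptor) 2 and 8 against 4 and 1. Among the estrogen-related receptors, orphan regulators of energy metabolism, *Esrra* and *Esrrb* differed more between the replicates of each group than between groups. For *Esrrg* this held in Rxra-KO alone. *Esrra* had 1 and 12 reads in WT, against 4 and 14 in Rxra-KO, *Esrrb* 4 and 13 against 3 and 11, and *Esrrg* 1 and 3 against 8 and 3.

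*Nr0b2*, for the corepressor SHP, which lacks a DNA-binding domain and is known as a target of FXR, had no read in either WT library and 2 and 13 in Rxra-KO. Against a floor of 3 reads per library its level was at least 2.04-fold higher in Rxra-KO. That bound rests on Rxra-KO replicate 2, since the 2 reads of replicate 1 were themselves under the floor. The adjusted p of *Nr0b2* from limma was 0.130, for a gene listed through Rxra-KO alone, so its direction was fixed. The remaining non-partners had means under 10 reads. *Hnf4a*, known from liver, had 10 and 8 reads in WT, against 6 and 7 in Rxra-KO, and *Nr2f6*, a COUP-TF relative, 8 and 9 against 5 and 13. The COUP-TF genes *Nr2f1* and *Nr2f2* had 3 and 8 against 7 and 5, and 2 and 3 against 1 and 0. *Nr2e3*, a photoreceptor receptor, had 6 and 5 against 5 and 8, *Nr5a1* and *Nr5a2* between 1 and 5 reads in every library, and *Nr6a1* 5 and 4 against 7 and 7.

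The genes around the receptors were read from lists of cofactors, ligand enzymes and known targets. Beside the counts called in these lists of 6 to 16 genes stand the 1.32% of all genes called higher and the 0.969% called lower, and 1 call in so short a list is no result about the list. Of 16 coregulator genes 1 was called, lower. *Nrip1* encodes RIP140, a ligand-dependent corepressor that binds RXR partners, and it had 103 and 81 reads in WT, against 31 and 49 in Rxra-KO. It fell by 1.27 on the log2 scale (SE 0.31, adjusted p = 0.00409 from limma), and the list's median was -0.18. Of 12 genes for retinoid supply and breakdown 1 was called, and of 6 RAR targets the same gene. *Cyp26a1*, the enzyme that degrades retinoic acid and itself a RAR target, had 14 and 15 reads in WT, against 1 and 0 in Rxra-KO (adjusted p = 0.0035), at the floor in Rxra-KO. The medians of these lists were -0.02 and -0.31.

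Of 13 LXR targets 2 were higher and 1 lower, with a median of 0.19. *Abca1*, the cholesterol exporter, had 66 and 37 reads in WT, against 97 and 206 in Rxra-KO (log2 fold change 1.42, adjusted p = 0.00019 from limma). *Pltp*, a phospholipid transfer protein, had 78 and 74 against 163 and 266 (1.37, adjusted p = 4.44e-05), and *Cd5l*, a secreted survival factor of macrophages, was lower (-0.90, adjusted p = 0.00346). Of 12 PPAR targets 1 was higher and 1 lower. *Fabp4*, a fatty acid carrier, had 336 and 460 reads in WT, against 97 and 146 in Rxra-KO (-1.78, adjusted p = 5.19e-10), while *Lpl*, the lipoprotein lipase, had 300 and 301 against 372 and 971 (0.93, adjusted p = 0.00375). Of the 12 genes 8 had a log2 fold change above 0, and the median was 0.21.

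Of 10 glucocorticoid receptor targets 1 was called. *Dusp1*, a MAP kinase phosphatase that is also an immediate early gene, had 55 and 25 reads in WT, against 15 and 12 in Rxra-KO (-1.45, adjusted p = 0.0409 from limma), and the list's median was 0.22. Of 15 clock genes of the REV-ERB and ROR loop 1 was called, with a median of 0.42. *Arntl*, which encodes the clock activator BMAL1 and is a classic target of both receptor families, had 12 and 17 reads in WT, against 58 and 62 in Rxra-KO (1.91, adjusted p = 0.000151). The hour at which the mice were killed was not given in the sources used here. Of 14 immediate early genes *Egr2*, a zinc finger factor, was higher, with 25 and 10 reads in WT, against 165 and 58 in Rxra-KO (2.46, adjusted p = 4.74e-08), and *Dusp1* lower. The median of that list was -0.35, and 3 of its 14 genes had a log2 fold change above 0.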

How the data were processed

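Whole-gene RNA values of LPMs sorted from WT and Rxra-KO mice were used. Per the methods of the study, cDNA was made with SMART-Seq v4 chemistry, and reads were quantified with Kallisto 0.43.0, summed to genes with tximport and scaled by TMM. The deposited values are a normalised read signal, 1 column per library. Whole reads were recovered from them (100% of values within 0.001 read of a whole number), with 1 read worth 1.51 and 1.08 in WT and 1.51 and 0.993 in Rxra-KO. Kallisto estimates need not be whole numbers, so the counting program behind these reads was not settled. The submitters' notes name GRCh38, a human build, for these mouse libraries, so the build behind the reads was not settled either. The study left out RNA-seq samples that did not group with their condition.

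limma 3.58.1 (trend) was fitted to log2(value + 1) of genes that reached a value of 1 in 2 or more libraries, without a block, and fold changes on this scale understate those of low genes. Spread came from 2 residual and 226.6 prior degrees of freedom. Alternatives were other pseudocounts, TMM on the values, a filter, no trend, limma-voom, edgeR 4.0.16 and DESeq2 1.42.0 on the reads, leaving out each library and a replicate block. Shares have Wilson intervals and exact permutation tests, and all intervals on reads cover counting error only. The receptor family, taken by membership, and the gene lists were chosen with earlier results of these data known. Sums of marker lists without their leading gene were added after seeing the data. All receptors are accounted for, and every called gene, the RXR genes and every gene with a mean of at least 10 reads is given in each library. Target and cofactor genes are named where called. Sequences and motif windows are from the RefSeq table, which held 41 of the 44 genes. These are not the same 41 as in the expression values, since *Nr0b1* was in it and *Thra*, *Nr3c1* and *Nr5a1* were not.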

Additional observations from a re-analysis of the deposited data

How the results depend on the processing

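The number of receptor genes called, 1, fell to 0 with a value of at least 10 required in 2 libraries, a filter that removed *Pparg*. It also fell to 0 with limma without a trend, with limma-voom and with DESeq2, which gave 36 of the 41 genes, *Pparg* among them, no adjusted p. It ranged from 0 to 1 when single libraries were left out (0 without WT replicate 2 or Rxra-KO replicate 1), while edgeR on the reads called 1. Over all genes the count went from 421 to 0 without a trend, to 246 with DESeq2, to 446 with edgeR, and to between 167 and 381 without a library (lowest without Rxra-KO replicate 1, 240 without WT replicate 2). The replicate block gave 540 calls and 1 receptor gene, and changed no other receptor call. The correlation of deviations between libraries of the same replicate number was 0.035. Over genes with a mean value of at least 10 it was 0.063. Counting error lowers such a correlation, so it does not settle whether the libraries were paired. The adjusted p of *Pparg* was 0.513 without a trend and 0.0659 with limma-voom, and its log2 fold change ranged from 1.73 to 4.08 without a library. *Rxra* kept its direction, at 0.69 to 1.29 without a library. Leaving out a library reversed *Rxrg* (-2.15 to 0.54), *Rarb* (-0.67 to 0.39), *Rarg* (-1.06 to 0.17), *Thra* (-0.24 to 0.75), *Nr1d1* (-0.90 to 0.54), *Nr1d2* (-0.013 to 1.28), *Nr2c1* (-0.86 to 0.64), *Nr2c2* (-0.066 to 0.70) and *Esr2* (-0.58 to 0.13), and limma-voom reversed *Nr2c1* (0.042). Without a library the median of non-partners ranged from -0.0098 to 0.14, that of partners from 0.16 to 0.30, and the difference in the RXR share from -5.32 to 11.7 percentage points. *Nr0b2* could not be fitted without either Rxra-KO library, as it then no longer passed the filter. Over the 17 receptor genes followed, 190 of 207 pairs of gene and alternative kept direction and side. Pairs without a fit or an adjusted p were left out, among them *Pparg* with the value filter and with DESeq2. Of these genes only *Pparg* was called in the main fit, so for the others keeping the side says little. The cause of these changes was not tested, apart from the smaller number of libraries or genes in the settings that remove them. At these depths a receptor with fewer than 10 reads has a standard error of 0.61 or more on the log2 scale.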
